A study of Rattus norvegicus with 4 samples.

Results

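The genes that make, carry and break down dopamine were followed through the nuclei of the adult rat ventral tegmental area. They were 7 of the 32883 features counted: Th, Ddc, Gch1, Slc6a3, Slc18a2, Maoa and Maob, taken by symbol. The list was chosen with earlier results of these data known. All 7 were found, and all 7 passed the filter on low counts in the comparisons between kinds of nuclei. The data were 4 droplet libraries of single nuclei (10x Genomics 3′ chemistry), 2 from female and 2 from male Sprague-Dawley rats aged 90 to 120 days. The rats carried no transgene named in the labels and had received no experimental treatment. Each library pooled the tissue of 3 rats of 1 sex, so the library was the replicate and differences between single animals were not seen. The nuclei were sorted on a DNA stain and not on a cell type marker, and nuclear RNA is not the whole RNA of a cell.

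Dopamine is made from tyrosine. Tyrosine hydroxylase (Th) makes L-DOPA with the cofactor tetrahydrobiopterin, whose synthesis starts with GTP cyclohydrolase (Gch1), and aromatic L-amino acid decarboxylase (Ddc) turns L-DOPA into dopamine. The vesicular monoamine transporter (Slc18a2, or VMAT2) loads dopamine into vesicles, and the dopamine transporter (Slc6a3, or DAT) takes it back up from outside the cell. The monoamine oxidases Maoa and Maob sit on the outer mitochondrial membrane and begin its breakdown.

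Nuclei were grouped by raw UMIs (unique molecular identifiers, each standing for 1 captured RNA molecule) of 12 other genes. A nucleus counted as dopamine-like with at least 1 UMI of the nicotinic receptor subunit genes Chrna6 or Chrnb3 and at least 1 of the receptor gene Ret. GABA nuclei had at least 2 UMIs of Gad1, and glutamate nuclei at least 2 of Slc17a6 with 0 of Gad1. Glia were gated as oligodendrocyte nuclei (Mog and Mobp, 3 UMIs or more together), oligodendrocyte precursor nuclei (Pdgfra, 2 or more), astrocyte nuclei (Gja1 and Aqp4, 2 or more) and microglia nuclei (Csf1r and C1qa, 2 or more). Of 20620 nuclei kept, 16723 fell in a gate and 3744 passed none. Another 153 passed a neuron and a glial gate, or 2 glial gates, and were set aside. A nucleus past the dopamine-like gate and another neuron gate counted as dopamine-like only. The dopamine-like gate held 312 nuclei, 80 and 74 from the female and 71 and 87 from the male libraries. Of these, 97 had exactly 1 UMI of Chrna6 and Chrnb3 together and 95 exactly 1 of Ret, while 203 kept nuclei with Chrna6 or Chrnb3 had 0 of Ret and stayed outside. The other gates held 1121 GABA, 1529 glutamate, 9156 oligodendrocyte, 1335 precursor, 2260 astrocyte and 1010 microglia nuclei. Median UMIs per nucleus were 9650 in the dopamine-like, 7500 in the GABA, 8249 in the glutamate and 2319 in the oligodendrocyte gate, and 1332 in the microglia gate. Levels are given as CPM, a gene's UMIs in the summed nuclei of a gate and library, scaled to that sum's UMIs of all genes.

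The gates were checked against markers that had not been used to draw them. Summed over 6 dopamine neuron markers (Slc10a4, Pitx3, Nr4a2, En1, Drd2 and Aldh1a1), the dopamine-like gate stood at 577 to 725 CPM across libraries, against 63.8 to 77.3 in the glutamate and 24.4 to 49.2 in the GABA gate. The same list was at 81.9 to 123 CPM in astrocyte nuclei, most of it Aldh1a1, and at 8.79 to 147 CPM in microglia nuclei. All 3 noradrenaline markers, Dbh and Slc6a2 among them, were at 0 in the dopamine-like gate, as were Slc6a4 and Fev of the 3 serotonin markers, and the serotonin sum reached 1.05 CPM at most. The GABA markers Gad2 and Slc32a1 summed to 309 to 409.5 CPM in the dopamine-like gate, below the 624 to 789 of the GABA gate. The glutamate markers Slc17a7 and Slc17a8 did not set the glutamate gate apart. They summed to 4.68 to 9.28 CPM there, 5.78 to 15.0 in the GABA and 1.29 to 5.37 in the dopamine-like gate. Of the glial lists, dopamine-like nuclei carried 136 to 219 CPM of the oligodendrocyte list (21743 to 36317 in the oligodendrocyte gate), 34.9 to 67.5 of the precursor, 9.49 to 27.8 of the astrocyte and 2.41 to 3.88 of the microglia list. The microglia gate carried 1144 to 1855 CPM of the astrocyte list, nearly all of it Slc1a3, and the astrocyte gate carried 60.1 to 77.0 CPM of the mural list. Any 2 libraries shared 4 to 9 cell barcodes.

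The sequences before the start sites are shown for Th and Slc18a2, which rose in dopamine-like nuclei. Ddc, Gch1 and Slc6a3 rose there as well and their sequences are not printed. Also shown are the sequences of Maoa and Maob, neighbours on chromosome X whose patterns across the gates differed. They are the 250 bases upstream of the start in the RefSeq promoter table of the GRCr8 build, which is not the build named for these files, printed along the gene's strand. Capitals mark a match to 1 of 5 motifs searched on both strands. The windows are chr1:207508219-207508468 on the minus strand for Th, chr1:268399771-268400020 on the plus strand for Slc18a2, chrX:8681373-8681622 on the minus strand for Maoa and chrX:8490155-8490404 on the plus strand for Maob.
Th: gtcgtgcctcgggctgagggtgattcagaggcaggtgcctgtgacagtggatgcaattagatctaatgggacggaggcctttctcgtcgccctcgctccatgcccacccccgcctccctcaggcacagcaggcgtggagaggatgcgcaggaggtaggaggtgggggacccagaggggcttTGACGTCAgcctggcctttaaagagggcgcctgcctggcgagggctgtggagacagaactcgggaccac
Slc18a2: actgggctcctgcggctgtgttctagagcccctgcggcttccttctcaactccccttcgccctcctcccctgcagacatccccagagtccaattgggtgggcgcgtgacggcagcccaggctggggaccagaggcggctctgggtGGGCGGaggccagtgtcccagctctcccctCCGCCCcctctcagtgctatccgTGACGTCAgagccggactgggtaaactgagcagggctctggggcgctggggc
Maoa: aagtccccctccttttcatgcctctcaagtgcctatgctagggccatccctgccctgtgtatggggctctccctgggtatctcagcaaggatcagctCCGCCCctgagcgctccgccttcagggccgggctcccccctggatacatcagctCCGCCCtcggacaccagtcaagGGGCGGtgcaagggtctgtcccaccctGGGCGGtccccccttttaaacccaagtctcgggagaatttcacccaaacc
Maob: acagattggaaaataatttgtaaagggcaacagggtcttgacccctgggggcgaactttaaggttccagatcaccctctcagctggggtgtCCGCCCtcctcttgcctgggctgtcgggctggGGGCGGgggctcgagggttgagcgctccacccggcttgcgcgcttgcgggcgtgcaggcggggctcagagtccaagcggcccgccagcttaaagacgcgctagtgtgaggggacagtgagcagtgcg
The palindromic cyclic AMP response element (TGACGTCA) lay at position -69 before Th and -52 before Slc18a2, and 1.59% of 33469 windows of the same length held it. It was not found before Ddc, Gch1 or Slc6a3, nor before Maoa or Maob. The GC box (GGGCGG, or CCGCCC on the other strand) was found before Slc18a2, Maoa, Maob, Slc6a3 and Gch1, and in 30.5% of all windows. The NBRE (AAAGGTCA), the motif of the nuclear receptor Nr4a2, was found before 1 of the 3 listed starts of Ddc, at position -73 on the other strand, where it overlapped a TATA box match (TATAAA on the other strand). Of all windows, 1.24% held the NBRE and 12.9% the TATA box. The bicoid-type motif (TAATCC) was in none of the 9 windows of the 7 genes and in 6.34% of all windows. A match describes these letters and no binding was measured.

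Th, the gene of the rate-limiting enzyme, had its highest level in the dopamine-like gate, at 537, 434, 510.3 and 499 CPM (libraries always in the order Female 1, Female 2, Male 1, Male 2), a mean of 495 ± 44.0 (SD, n = 4 libraries). Glutamate nuclei came next, at 42.9, 41.1, 33.7 and 36.6 CPM in the same order of libraries. Every dopamine-like library lay above every glutamate library, and every glutamate library above every library of the other 5 gates, which ranged from 2.68 to 22.9 CPM. Among those 5, gates next to each other in the order of means overlapped, while every microglia library lay above every GABA library. GABA nuclei had 7.27, 3.94, 7.61 and 5.78 CPM. In the edgeR quasi-likelihood fit of all 28 sums, with p-values adjusted by Benjamini and Hochberg's method, Th was higher in dopamine-like than in GABA nuclei by 6.35 ± 0.14 on the log2 scale (SE; adjusted p = 1.02e-30, higher in 4 of 4 libraries). It exceeded the glutamate level by 3.73 ± 0.10 (adjusted p = 1.94e-27, 4 of 4 libraries).

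Gch1, which opens the cofactor pathway, had 101, 117, 101 and 97.8 CPM in dopamine-like nuclei, a mean of 104 ± 8.55. The second highest gate was not a neuron gate: microglia had 17.6, 21.7, 35.9 and 26.7 CPM, above every glutamate library at 3.31 to 4.77 CPM. The microglia level came from 38 UMIs in 34 nuclei with at most 3 in any one nucleus, so no single nucleus carried it. The microglia markers Cx3cr1, P2ry12, Aif1 and Itgam summed to 1461 to 2028 CPM in that gate. The astrocyte list was also present there, as given above, and astrocyte nuclei held 5 Gch1 UMIs in all, 0.562 ± 0.437 CPM. The part of other cells' RNA in the microglia level was not tested. Gch1 was higher in dopamine-like than in microglia nuclei by 1.93 ± 0.24 on the log2 scale (edgeR adjusted p = 3.27e-09) and lower in astrocyte than in microglia nuclei by 5.06 ± 0.50 (log2 fold change -5.06, adjusted p = 9.98e-12). It exceeded GABA nuclei by 5.92 ± 0.25 and glutamate nuclei by 4.69 ± 0.20.

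Ddc, the decarboxylase that serotonin neurons also use, had 1332, 1298, 1348 and 1151 CPM in dopamine-like nuclei, with a mean of 1282 ± 90.4. In glutamate nuclei it had 74.1, 104, 66.4 and 63.9 CPM. GABA nuclei had 13.7, 13.0, 27.9 and 15.0 CPM. The dopamine-like gate stood apart from the glutamate gate, and the glutamate gate from all others. The microglia values of 8.79, 17.4, 45.7 and 2.43 CPM came from 26 UMIs, 13 of them in 1 nucleus. The log2 difference from GABA nuclei was 6.23 ± 0.17 and that from glutamate nuclei 4.12 ± 0.13 (edgeR adjusted p = 1.22e-28 and 9.91e-26). Fignl1 overlaps Ddc in the RefSeq gene table, and the sources used here do not say how reads from overlapping genes were assigned.

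Slc18a2, the vesicle transporter, had 341, 256, 283 and 264 CPM in dopamine-like nuclei (mean 286 ± 38.0). GABA nuclei were its second gate, at 17.1, 15.4, 21.7 and 18.5 CPM against 11.5, 12.3, 11.2 and 13.9 CPM in glutamate nuclei. The GABA and glutamate libraries did not overlap, and both neuron gates stood above the 0 to 10.9 CPM of the glial gates. Precursor nuclei held 2 Slc18a2 UMIs, astrocyte nuclei 7 and microglia nuclei 8. The log2 difference of dopamine-like nuclei was 4.01 ± 0.14 from GABA and 4.57 ± 0.14 from glutamate nuclei (edgeR adjusted p = 1.98e-24 and 3.27e-26). GABA minus glutamate was 0.56 ± 0.19 (adjusted p = 0.0418), a call that was lost under DESeq2 (adjusted p = 0.533) and without Female 1 (0.107), Male 1 (0.340) or Male 2 (0.0671). It was also lost without the library block, with doublets kept, with the stricter filter on nuclei, with the stricter dopamine-like gate and among nuclei of 2000 UMIs or more (adjusted p from 0.0555 to 0.207), and with nuclei past 2 gates counted in each the difference was 0.14 (0.794).

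Slc6a3, the plasma membrane transporter, had 704, 538, 773 and 606 CPM in dopamine-like nuclei, a mean of 655 ± 104. The other 6 gates had means from 2.79 in GABA to 15.7 CPM in microglia nuclei, and those next to each other in that order overlapped. The microglia mean rested on Male 1, at 42.4 CPM against 2.17 to 12.1 in the other libraries, and 11 of its 21 UMIs lay in 1 nucleus. Glutamate nuclei had 7.58, 17.5, 5.14 and 8.50 CPM, and GABA nuclei 3.00, 2.36, 2.90 and 2.89 CPM. Slc6a3 had the largest log2 difference of the 7 genes in both neuron comparisons, 7.90 ± 0.23 over GABA and 6.27 ± 0.18 over glutamate nuclei (edgeR adjusted p = 1.44e-27 and 2.40e-27). GABA nuclei were lower than glutamate nuclei (log2 fold change -1.64 ± 0.43, adjusted p = 0.00705), where 26 of the 119 glutamate UMIs lay in 1 nucleus. With the dopamine-like gate drawn without Ret this difference was -1.02 and lost its call (adjusted p = 0.173).

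Maoa, the oxidase with a preference for serotonin and noradrenaline, was spread over every gate. Dopamine-like nuclei had 50.5, 63.1, 34.8 and 35.0 CPM, a mean of 45.9 ± 13.7. Astrocyte nuclei had 35.6, 44.5, 42.4 and 45.4 CPM and oligodendrocyte nuclei 37.3, 35.8, 45.1 and 38.6 CPM. These gates overlapped, as did every pair of neighbours in the order of the 7 means, down to GABA at 28.1 ± 2.52, microglia at 26.6 ± 6.09 and glutamate at 24.7 ± 3.59 CPM. Maoa was higher in dopamine-like than in GABA nuclei by 0.74 ± 0.18 and than in glutamate nuclei by 0.86 ± 0.17 on the log2 scale (edgeR adjusted p = 0.00145 and 0.000179). The difference from astrocyte nuclei was -0.16 ± 0.17, with a 95% interval from -0.49 to 0.17, and that from oligodendrocyte nuclei -0.13 ± 0.15, from -0.43 to 0.17, and neither passed the test. Both turned slightly positive under some settings: the oligodendrocyte difference was 0.04 with either other scaling, which moved the median of all genes in that comparison by 0.19 (DESeq2) and 0.16 (RLE).

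Maob, the oxidase of astrocytes and serotonin neurons, had its highest level outside neurons. Astrocyte nuclei had 192, 180.1, 199.8 and 195 CPM, a mean of 192 ± 8.40. GABA nuclei followed at 33.8, 32.3, 50.4 and 50.3 CPM. Dopamine-like nuclei had 7.77, 10.7, 5.27 and 7.24 CPM and glutamate nuclei 7.30, 5.67, 7.25 and 7.22 CPM. The astrocyte libraries stood above the GABA libraries and those above all others, while dopamine-like, glutamate, precursor, oligodendrocyte and microglia nuclei overlapped. In GABA nuclei the 387 Maob UMIs were unevenly held: 162 of 1121 nuclei had any, 29 had 3 or more, and 1 nucleus had 40. Maob was lower in dopamine-like than in astrocyte nuclei (log2 fold change -4.90 ± 0.22, edgeR adjusted p = 4.52e-22) and than in GABA nuclei (-2.40 ± 0.30, adjusted p = 2.14e-08). Against glutamate nuclei it was 0.16 ± 0.40, with a 95% interval from -0.62 to 0.94 (adjusted p = 0.862), and without Female 2 the sign turned to -0.10.

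**Figure D1:**
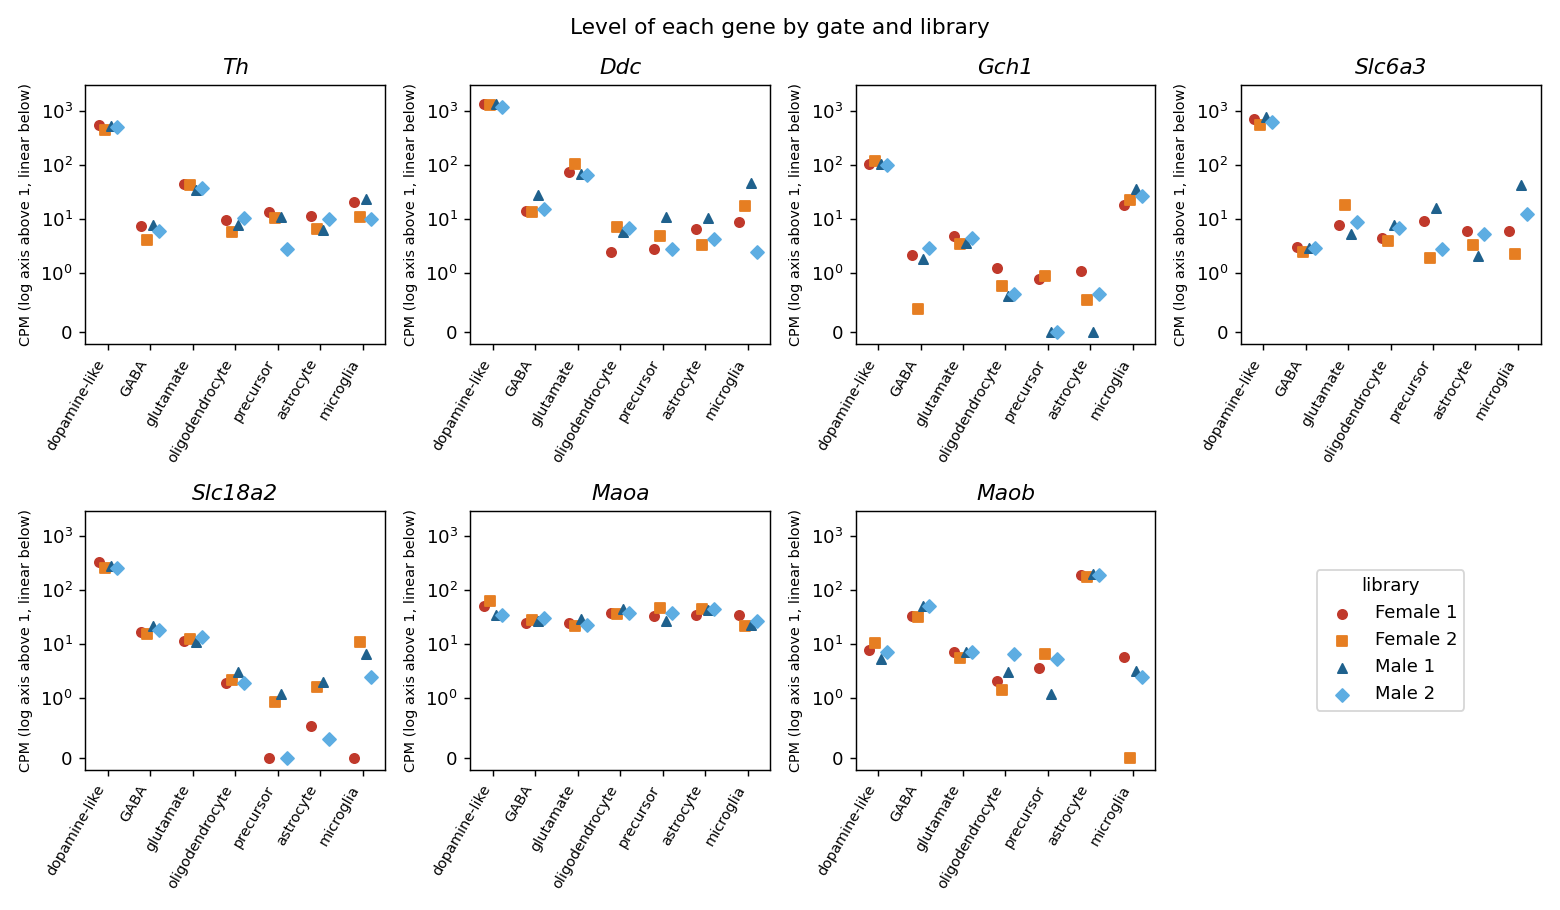
CPM (vertical axis, logarithmic above 1 and linear below) of each of the 7 genes in the 7 gates, 1 point per library coloured by library. Th, Ddc, Gch1, Slc6a3 and Slc18a2 peak in dopamine-like nuclei in all 4 libraries, Maob peaks in astrocyte nuclei (180.1 to 199.8 CPM), and Maoa spans 21.7 to 63.1 CPM over all gates.

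Counted over the whole group, 6 of the 7 genes were higher and 1 (Maob) lower in dopamine-like than in GABA nuclei, where 9.67% of the 13071 genes tested were higher and 11.1% lower. The median log2 difference of the 7 was 5.92, against -0.03 over all genes tested. Against glutamate nuclei 6 were higher and 0 lower, with Maob not called (all genes: 7.51% higher, 8.78% lower), and the median was 4.12 against -0.04. GABA minus glutamate called 2 genes higher (Slc18a2 and Maob) and 4 lower (Th, Ddc, Gch1 and Slc6a3), with 5.47% and 6.38% of all genes. There Th was lower by -2.62 ± 0.19, Ddc by -2.11 ± 0.20 and Gch1 by -1.23 ± 0.38 (edgeR adjusted p = 0.0251 for Gch1), while Maob was higher by 2.56 ± 0.20. The Gch1 call was lost when any 1 library was left out (adjusted p from 0.0582 to 0.166).

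The same 5 synthesis and transport genes were called higher in dopamine-like nuclei against each glial gate. Against oligodendrocyte nuclei 5 were higher and 0 lower (all genes 34.8% and 34.7%), with log2 differences of these 5 from 5.58 for Th to 7.49 for Ddc. Maob was not called there, at 0.88 ± 0.42 (edgeR adjusted p = 0.0615). It was called higher under DESeq2 (adjusted p = 0.00797), with RLE scaling (edgeR, 0.0289) and without Male 2. The stricter filter on nuclei, the stricter dopamine-like gate and the gate without Ret also called it higher. Against precursor nuclei 5 were higher and 0 lower (26.5% and 25.2%). No fold is given there for Gch1 and Slc18a2, which had 2 precursor UMIs each. Against astrocyte nuclei the 5 were higher and Maob lower (30.2% and 31.2%). Against microglia nuclei 6 were higher, Maoa included at 0.66 ± 0.27 (adjusted p = 0.0333), and 0 lower (34.2% and 27.8%). Maoa lost that call without Female 1 (adjusted p = 0.0507) and without Female 2 (0.307). The shares of all genes called were several times larger here than between neuron gates.

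Among glia, Maob was the gene that set astrocytes apart. It was higher by 5.79 ± 0.16 on the log2 scale than in oligodendrocyte nuclei, where 1 member was higher and 1 (Slc18a2) lower (32.6% and 33.5% of all genes). It was higher by 5.57 ± 0.24 than in precursor nuclei, the only 1 of the 7 called higher with 0 lower (26.6% and 25.3%). Against microglia nuclei it was higher by 6.28 ± 0.37, Maoa was higher by 0.82 ± 0.25, and Th alone was not called, while Gch1, Slc18a2, Ddc and Slc6a3 were lower (30.3% and 24.5%). With doublets kept, or with higher glial gates, 3 of the 7 were called there in place of 6, and the microglia levels of Ddc and Slc6a3 rested largely on 1 nucleus each, as given above. The Slc18a2 call against oligodendrocyte nuclei rested on 7 astrocyte UMIs, and without Male 2 only 1 of the 7 genes was called in that comparison.

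**Figure D2:**
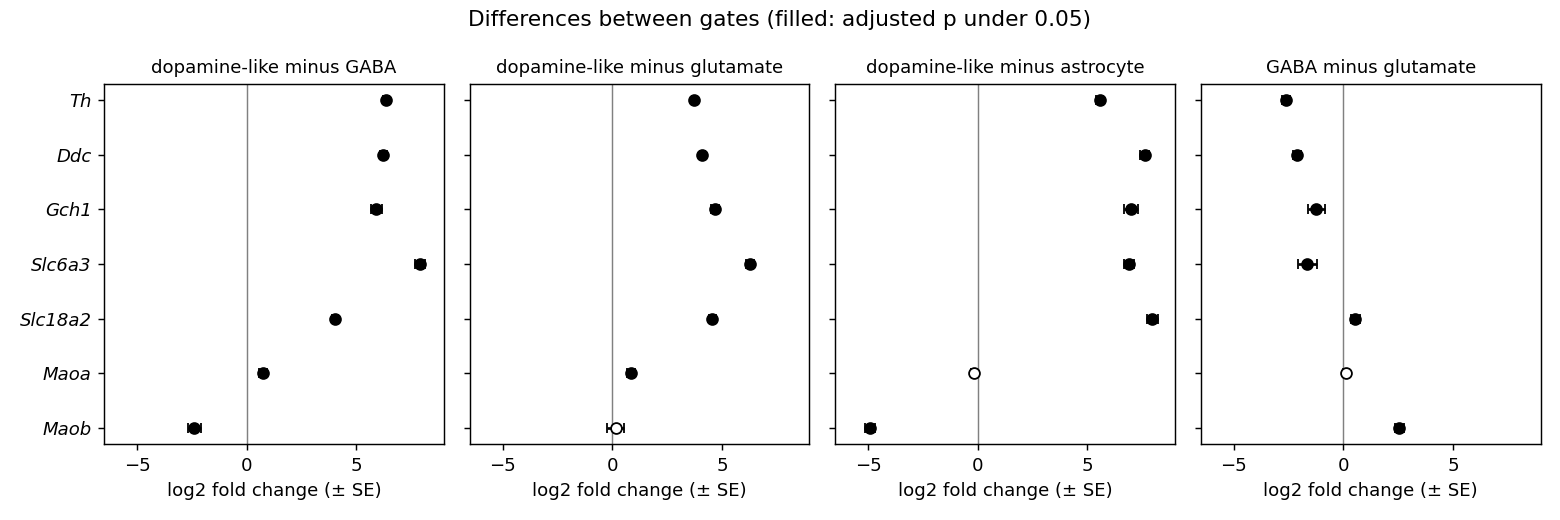
Log2 fold changes (horizontal axis, bars are SE) of the 7 genes in 4 comparisons between gates, with filled points past an adjusted p of 0.05. The 5 synthesis and transport genes lie at 3.73 or more in both dopamine-like against neuron panels, and Maob lies at -4.90 against astrocyte nuclei.

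Not all of these transcripts were in the dopamine-like gate. It held 1.51% of the kept nuclei and 40.0% of all Th UMIs, 47.0% of Ddc, 47.2% of Gch1, 44.1% of Slc18a2 and 60.8% of Slc6a3 UMIs. Glutamate nuclei held 12.9% of Th and 3.32% of Slc6a3 UMIs. Nuclei past no gate held 35.1% of Th, 34.6% of Ddc and 24.9% of Slc6a3 UMIs, and 171 of those 3744 nuclei had 3 or more Th UMIs. Of the oxidases, 5.30% of Maoa and 0.998% of Maob UMIs lay in dopamine-like nuclei, against the 1.51% of nuclei in that gate. Oligodendrocyte nuclei, 44.4% of the kept nuclei, held 34.3% of Maoa UMIs. Astrocyte nuclei, 11.0% of the kept nuclei, held 59.8% of Maob UMIs.

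Because neuron nuclei were deeper than glial ones, shares of nuclei with a UMI were compared after each nucleus was thinned to 2000 UMIs, with shallower nuclei left out. Those were 0 of 312 dopamine-like, 3 GABA, 12 glutamate, 3540 oligodendrocyte, 337 precursor, 456 astrocyte and 823 of 1010 microglia nuclei. Free RNA was not measured. Oligodendrocyte nuclei, the most numerous glia, were taken as the reference for it. Detection of Th reached 53.5% ± 1.86 (SD over 4 libraries) in the dopamine-like gate, 5.85% ± 0.275 of glutamate, 1.49% ± 0.456 of GABA and 1.34% ± 0.251 of oligodendrocyte nuclei. Without thinning these were 83.4%, 13.9%, 4.82% and 1.85%. The glutamate share exceeded the oligodendrocyte share in 4 of 4 libraries, whereas the GABA share exceeded it in 2 of 4. At matched depth Th in GABA nuclei was therefore not told from that reference. Thinning takes a larger part of the UMIs, free RNA included, from the deeper GABA nuclei. Equal thinned shares therefore need not mean equal free RNA, and without thinning the GABA share was the higher. Precursor nuclei had Th in 1.65%, astrocyte nuclei in 1.62% and microglia nuclei in 2.42%. The exact two-sided sign-flip permutation test over 4 libraries cannot go below 0.13 (rounded), the value it gave for every difference with the same sign in 4 of 4 libraries.

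The other genes differed in how far they reached beyond dopamine-like nuclei. Ddc was detected in 81.8% ± 3.48 of dopamine-like, 9.99% ± 1.90 of glutamate, 2.93% ± 1.14 of GABA and 0.779% ± 0.164 of oligodendrocyte nuclei, and both other neuron gates were above oligodendrocyte nuclei in 4 of 4 libraries. Microglia nuclei had Ddc in 2.33%, near the GABA share, and astrocyte nuclei in 1.14%. Slc6a3 was in 52.8% ± 1.90 of dopamine-like nuclei, and its 1.24% in glutamate and 0.533% in GABA nuclei stood beside 0.761% in oligodendrocyte nuclei. Slc18a2 was in 37.5% ± 3.49 of dopamine-like, 2.58% ± 0.701 of GABA and 2.12% ± 0.327 of glutamate nuclei, against 0.338% in oligodendrocyte nuclei (4 of 4 libraries for both). Gch1 was in 16.4% ± 0.544 of dopamine-like nuclei and in 4.70% ± 1.47 of the 187 microglia nuclei deep enough, against 0.123% in oligodendrocyte nuclei. Maob was in 28.7% ± 1.46 of astrocyte, 5.32% ± 0.717 of GABA, 1.42% of glutamate, 1.33% of dopamine-like and 0.482% of oligodendrocyte nuclei. Maoa was in 8.67% ± 2.76 of dopamine-like and in 4.38% to 7.43% of the nuclei of the other gates on average. Unthinned, dopamine-like nuclei had Ddc in 93.4%, Slc6a3 in 70.7%, Slc18a2 in 69.1%, Gch1 in 43.0%, Maoa in 29.4% and Maob in 7.37%. Unthinned oligodendrocyte nuclei had Ddc in 1.06%, Slc6a3 in 1.04%, Slc18a2 in 0.490%, Gch1 in 0.200%, Maoa in 9.26% and Maob in 0.607%.

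**Figure D3:**
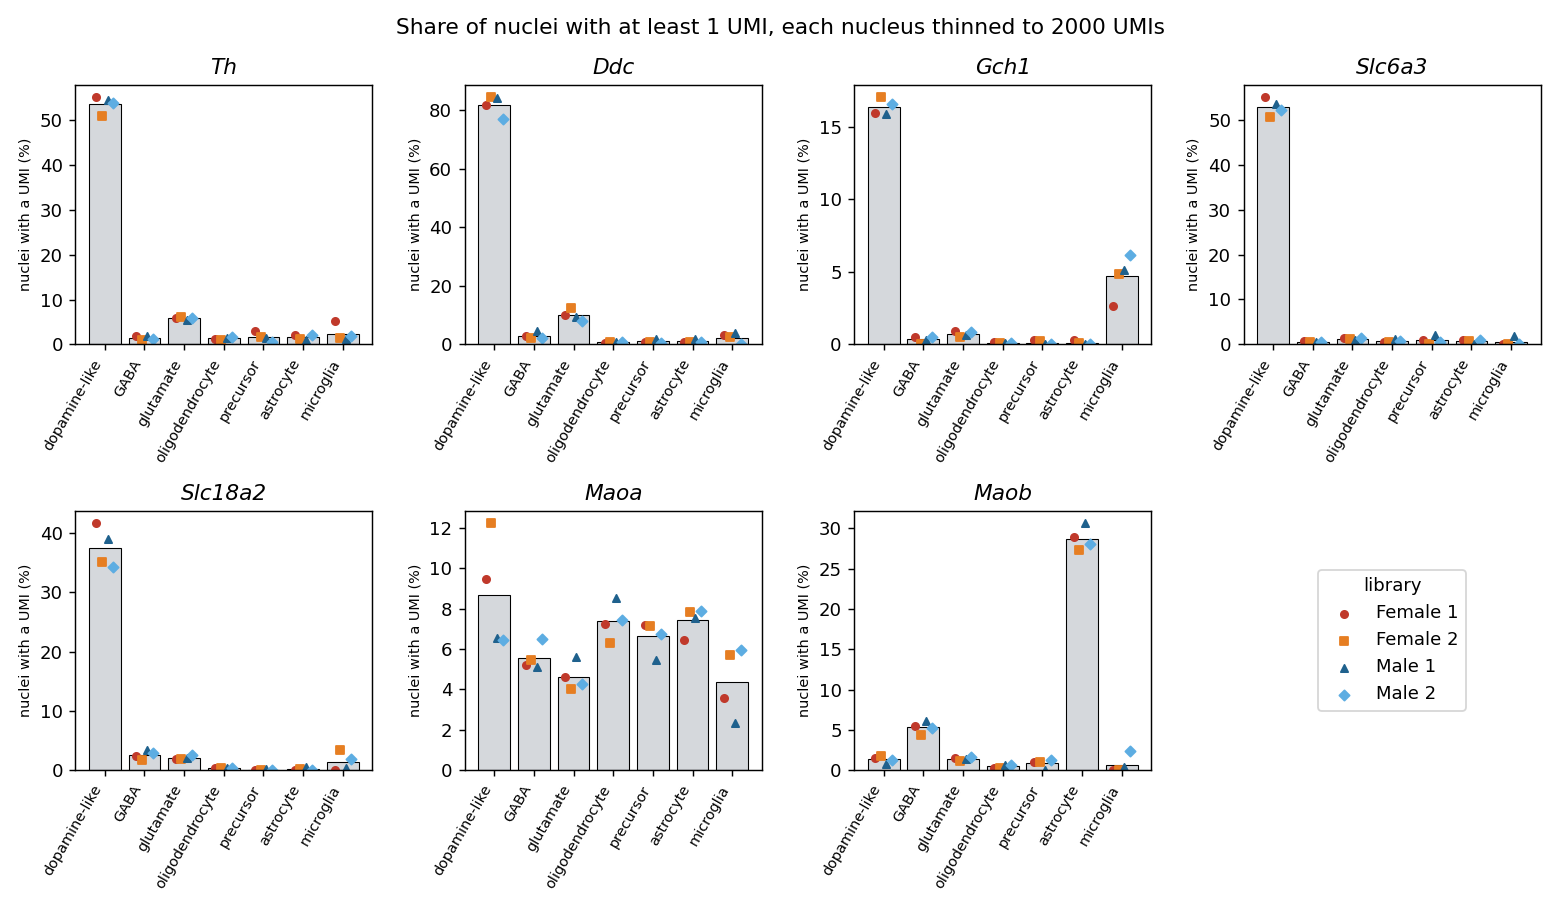
Share of nuclei with at least 1 UMI of each gene (vertical axis, percent, a scale for each gene) in the 7 gates after thinning to 2000 UMIs. Bars are means of 4 libraries and points the libraries, and the dopamine-like bar of Th is at 53.5% beside 5.85% in glutamate nuclei.

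Single dopamine-like nuclei carried several of the 5 synthesis and transport genes at once. At 2000 UMIs per nucleus, 71.5% ± 2.41 had at least 2 of Th, Ddc, Gch1, Slc6a3 and Slc18a2, with libraries from 68.5% to 73.8%. The corresponding share was 3.27% in glutamate, 0.262% in GABA and 0.180% in oligodendrocyte nuclei. All 5 were seen in 4.56% ± 0.690 and none in 10.7% ± 1.99, and without thinning in 37.9% and 4.69%. The most frequent combinations were Ddc alone (14.0%), Th, Ddc, Slc6a3 and Slc18a2 (13.8%) and Th, Ddc and Slc6a3 (11.2%).

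Within dopamine-like nuclei the other 4 genes were detected more often beside Th. Slc6a3 was detected in 68.1%, 60.8%, 69.1% and 68.6% of nuclei with a Th UMI and in 39.0%, 40.0%, 34.9% and 32.9% of those without, a mean difference of 29.9 ± 6.70 percentage points. For Slc18a2 the means were 48.8% and 24.3%, a difference of 24.5 ± 2.69 points. For Ddc they were 89.9% and 72.4% (17.5 ± 2.24 points, but 5.35 with the stricter dopamine-like gate and 10.5 with nuclei past 2 gates left out) and for Gch1 21.5% and 10.4% (11.1 ± 3.44 points). Each difference was positive in 4 of 4 libraries (exact sign-flip permutation test, p = 0.13, the smallest it can give). Nuclei without a Th UMI still had Ddc far above the 9.99% of glutamate nuclei. These are descriptions across nuclei, and a nucleus without a UMI at this depth can still hold the transcript.

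The Th-positive glutamate nuclei, 208 of 1529 before thinning, showed the same pairing at lower levels. Ddc was detected in 40.0% ± 1.64 of glutamate nuclei with a Th UMI and in 8.13% ± 2.03 of those without. Slc6a3 was in 8.43% and 0.791%, Slc18a2 in 6.20% and 1.87%, and Gch1 in 3.81% and 0.539%. Over the whole glutamate gate, nuclei without Th included, there were 0.226 Slc6a3 UMIs per Th UMI (0.153 to 0.425 across libraries) against 1.33 (1.22 to 1.51) in the dopamine-like gate. The Ddc ratio differed less, at 1.93 (1.73 to 2.54) and 2.59 (2.31 to 2.99), and the Slc18a2 ratio was 0.321 (0.268 to 0.380) and 0.576 (0.530 to 0.634). GABA nuclei had 2.95 Slc18a2 UMIs per Th UMI (2.35 to 3.90), from 171 and 58 UMIs. No GABA nucleus had more than 2 Th UMIs, and 14 of the Slc18a2 UMIs lay in 1 nucleus. At matched depth Th in GABA nuclei was not told from the oligodendrocyte reference, with the limit of that comparison given above. The libraries of the dopamine-like and glutamate gates did not overlap for the Slc6a3 and Slc18a2 ratios, and they did for Ddc.

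**Figure D4:**
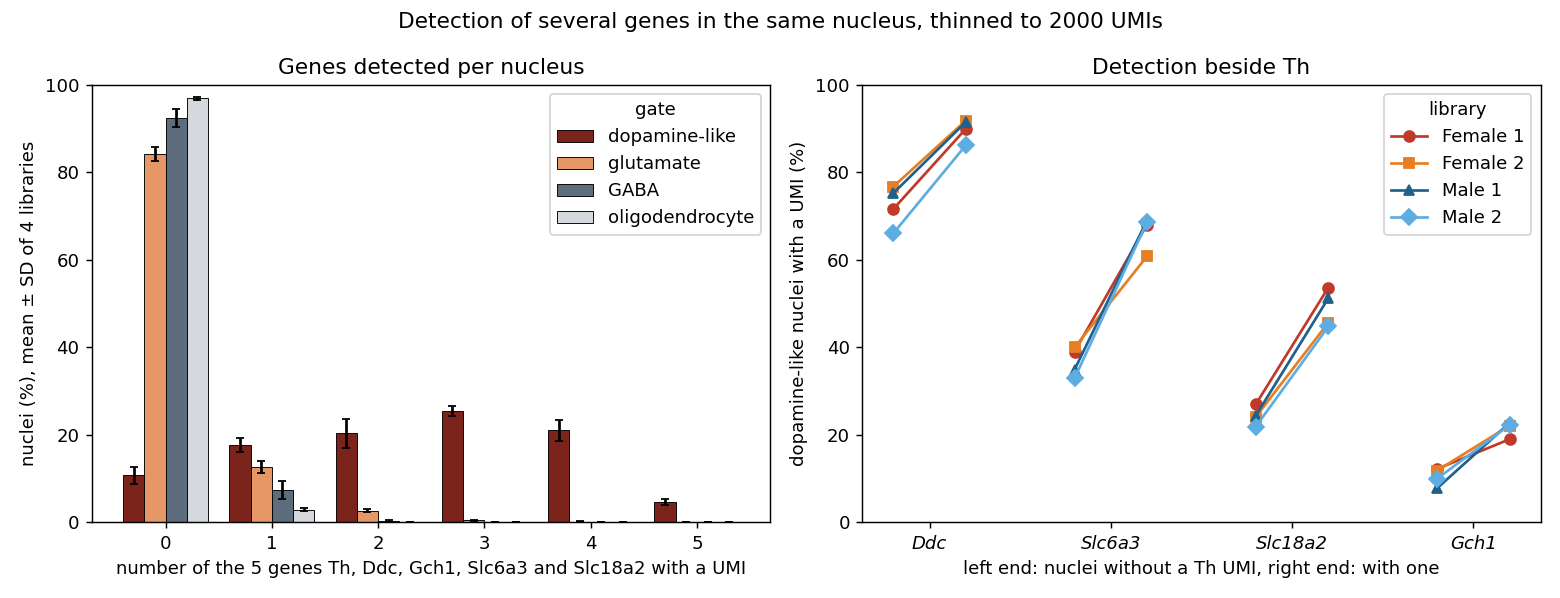
Left: percent of nuclei (vertical axis, mean ± SD of 4 libraries) by the number of the 5 synthesis and transport genes detected at 2000 UMIs, in 4 gates. Right: percent of dopamine-like nuclei with each gene, without (left end) and with (right end) a Th UMI, 1 line per library; every line rises, and 71.5% of dopamine-like nuclei have 2 or more of the 5 genes.

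The dopamine-like gate was not uniform. After the levels of the GABA and glutamate markers in it had been seen, its nuclei were divided by Gad2, the second gene for the GABA-making enzyme, so what follows is a description without a test. Th was at 175, 187, 276 and 194 CPM in the 97 nuclei with at least 2 Gad2 UMIs and at 657, 602, 639 and 657 CPM in the 197 nuclei with 0. Slc6a3 had means of 230.1 ± 83.7 and 834 ± 134 CPM, and Gch1 of 20.5 ± 6.02 and 145 ± 17.5 CPM. The libraries of the 2 sets did not overlap for these genes. Slc18a2 stood at 142 and 345 CPM, Ddc at 966 and 1421 and Maoa at 20.5 and 59.4, each lower with Gad2 in 4 of 4 libraries. The fall was not particular to these genes. The dopamine neuron markers Aldh1a1 (82.7 and 322 CPM) and Drd2 (142 and 305 CPM) were also lower in 4 of 4 libraries. Maob stood at 5.00 and 8.81 CPM, from 25 UMIs in the whole gate, too few to read a direction. Gch1 and Maoa also rested on few UMIs in the 97 nuclei with Gad2. Median UMIs were 9734 and 9536 per nucleus, so depth was near equal.

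A division by Slc17a6, the vesicular glutamate transporter gene, gave the same direction. In the 52 nuclei with at least 2 UMIs Slc6a3 was at 29.3, 73.9, 135 and 292 CPM, and in the 213 nuclei with 0 at 860.3, 672, 1085 and 759.6 CPM. Th had means of 226 and 598 CPM, Slc18a2 of 104 and 362, Ddc of 722 and 1479.7, and Gch1 of 28.5 and 131. Maoa had means of 25.9 and 53.3 CPM, and all 6 of these genes were lower with Slc17a6 in 4 of 4 libraries. The marker Drd2 was lower in 4 of 4 libraries as well (means of 115 and 308 CPM), and Aldh1a1 in 3 of 4 (169 and 263 CPM). Gch1 and Maoa rested on few UMIs in the 52 nuclei, as did Slc6a3 and Slc18a2 in Female 1, at 29.3 CPM each. Maob was again too sparse for a direction to be read. Median UMIs were 11580 per nucleus in the set with Slc17a6 and 9391 in the set without, so depth was less equal here. The divisions share nuclei: Gad2 was at 579 CPM in the nuclei with Slc17a6 and at 127 in those without, and 51 of the 312 dopamine-like nuclei also passed the glutamate gate and 8 the GABA gate. When the nuclei past 2 gates were left out, Th was detected in 59.9% of the rest at 2000 UMIs.

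**Figure D5:**
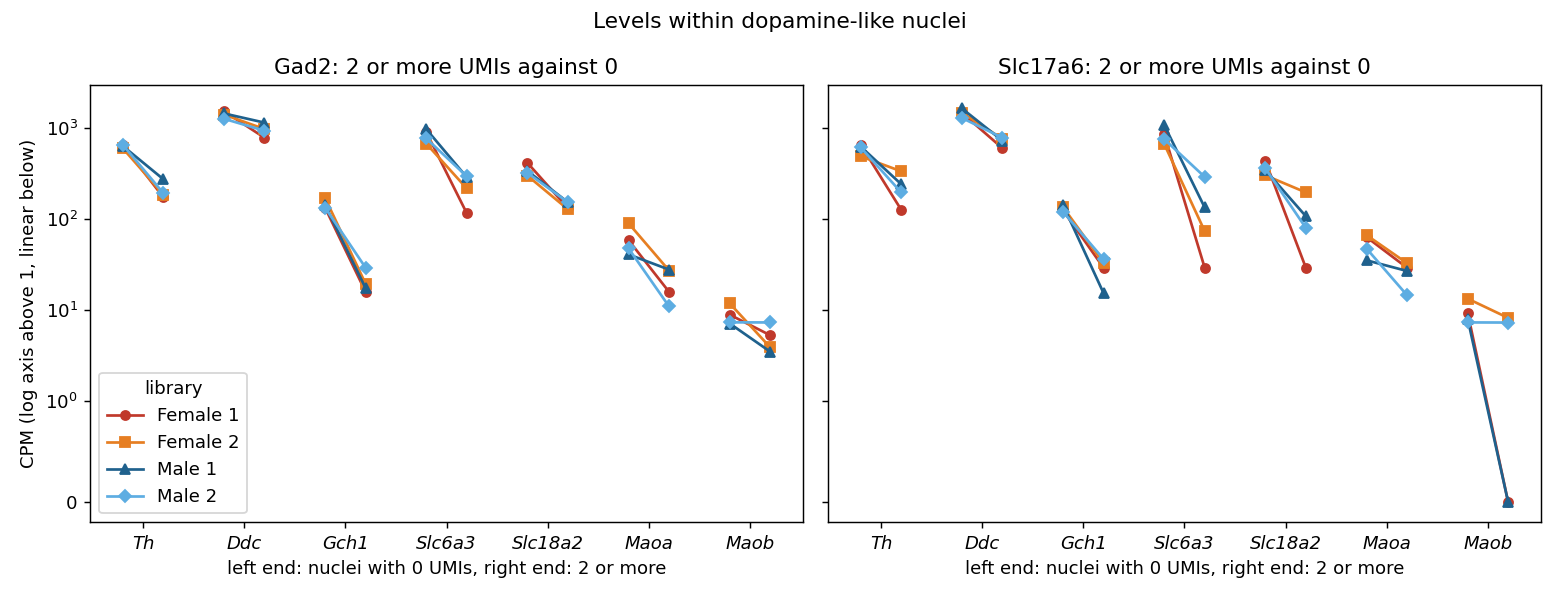
CPM (logarithmic above 1, linear below) of the 7 genes in dopamine-like nuclei with 0 (left end) and with 2 or more (right end) UMIs of Gad2 or of Slc17a6, 1 line per library. Lines fall for Slc6a3 from a mean of 844 to 133 CPM in the Slc17a6 panel.

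The study sampled both sexes, and female minus male was tested in each gate. No member was called by edgeR or by DESeq2 in any gate. In dopamine-like nuclei 0 of 6 members tested were called (0.087% of all genes) and 1 had an unadjusted p under 0.05. In the other gates 0 were called of 5 in GABA (0.094%), 7 in glutamate (0.0556%), 6 in oligodendrocyte (0.0513%), 2 in precursor (0.0938%), 4 in astrocyte (0.0858%) and 2 in microglia nuclei (0.0848%). With all nuclei summed it was 0 of 7 (0.0312%). Members with an unadjusted p under 0.05 numbered 2 in GABA, 1 in glutamate and 2 in oligodendrocyte nuclei and 0 in the other gates. With 2 libraries per sex, p-values measure the spread between these pools.

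The member with the lowest unadjusted p among dopamine-like nuclei was Maoa. Both female libraries (50.5 and 63.1 CPM) lay above both male libraries (34.8 and 35.0 CPM), a log2 difference of 0.69 ± 0.27 (edgeR unadjusted p = 0.019, adjusted p = 0.998). The other 5 members tested there ranged from -0.16 to 0.12. Maob in GABA nuclei went the other way, where the female libraries, at 33.8 and 32.3 CPM, lay below the male ones at 50.4 and 50.3 (-0.58 ± 0.19, unadjusted p = 0.00938, adjusted p = 0.693 by edgeR). Whether the dopamine-like differences from other neurons depended on sex was tested as an interaction, and 0 of 7 members were called for GABA (0.0% of all genes, 649 genes at an unadjusted p under 0.05) and 0 for glutamate (0.0%, 509 genes), with 0 also by DESeq2. The Maoa interactions were 0.74 ± 0.33 and 0.84 ± 0.31 on the log2 scale (edgeR adjusted p = 0.996 and 1.0). These differences did not hold up against the replicate spread after adjustment.

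Other genes of the pathway were read from a list of 31, of which 22 passed the filter. Against GABA nuclei 3 were higher and 4 lower in dopamine-like nuclei (all genes 9.67% and 11.1%), and against glutamate nuclei 3 higher and 0 lower (all genes 7.51% and 8.78%), with medians of -0.09 and 0.10. The same 3 were higher in both, and 2 of them are described here. Aldh1a1, which oxidises the aldehyde made by the monoamine oxidases, had 298, 176, 307 and 191 CPM in dopamine-like nuclei, 5.17 ± 1.24 in GABA and 10.9 ± 5.71 in glutamate nuclei (log2 differences 5.61 ± 0.31 and 4.48 ± 0.25, edgeR adjusted p = 3.12e-18 and 7.50e-18). Aldh1a1 was also in astrocyte nuclei, at 93.8 ± 16.7 CPM. Akr1b1, an aldose reductase, was higher by 0.77 ± 0.18 and 0.92 ± 0.17.

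The genes named next were chosen after their values were seen. The tyrosine supply genes Slc3a2 and Slc7a8 were lower in dopamine-like than in GABA nuclei (log2 differences -0.34 and -0.43; edgeR adjusted p = 0.0128 and 0.0113), as was the low-affinity monoamine transporter Slc29a4 (-1.76). Slc18a1, the other vesicular monoamine transporter, had 33.3 ± 6.67 CPM in dopamine-like and 32.6 ± 7.37 in GABA nuclei. Qdpr, which recycles the cofactor, was highest in oligodendrocyte nuclei at 311 ± 69.8 CPM.

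Genes with the most similar profile were ranked by Pearson correlation of log2(CPM + 1) over the 28 sums, among 10292 genes with at least 20 CPM in some gate. The sums of a library share its depth and those of a gate its cell type, so the values describe and carry no p. Tmem207 was among the 3 most similar genes for Th (r = 0.947), Ddc (0.937), Gch1 (0.837) and Slc6a3 (0.932). Beside it stood Pitx3 (0.935), a transcription factor of midbrain dopamine neurons, and Cck (0.924), a neuropeptide, for Th. For Ddc they were Wnt2 (0.975) and Npffr2 (0.937), for Gch1 Bnc2 (0.932) and Pdzd8 (0.905), and for Slc6a3 Fignl1 (0.884), the neighbour that overlaps Ddc, and Slc26a7 (0.860). Slc18a2 was most like Wnt2 (0.937), AABR07054126.1 (0.933) and Crhbp (0.925). Maob was most like the astrocyte-high genes Celsr1 (0.938), Id4 (0.929) and Wfdc1 (0.913), and Maoa had no gene above 0.706 (Rassf8, then RGD1309730 at 0.680 and Mrps9 at 0.635).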

How the data were processed

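Single-nucleus RNA of 4 libraries was measured by droplet sequencing. The deposited values are unnormalized UMI counts, made by the authors with Cell Ranger on the rat build rn6, per the submitters' processing notes; the matrix headers name software version 3.0.2, and the gene annotation and the counting of intronic reads are not stated in those sources. The libraries held 21513908, 21853615, 19714338 and 25824289 UMIs (Female 1, Female 2, Male 1, Male 2). Of 21606 barcodes, 6 were removed because they had fewer than 200 genes or more than 5% of UMIs from mitochondrial genes, then the 980 highest Scrublet doublet scores, at 0.8% per 1000 barcodes (scanpy 1.11.5; Scrublet's own threshold called 462). The thresholds of the 4 glial gates were set for this work.

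UMIs were summed by library and gate into 28 sums and fitted together in edgeR 4.0.16 (R 4.3.3; TMM scaling, filter on low counts by gate, library as a block, quasi-likelihood test), with Benjamini-Hochberg adjustment over 13071 genes, a threshold of 0.05, and the 12 gate genes left out; 10 comparisons were made. Sex was tested within each gate without a block, and as an interaction. All 4 libraries pool rats. With the library as a block, p-values between gates and of the interaction measure how gate differences vary between pools. Those of the sex tests within a gate measure the spread between pools. Thinned shares are the expected shares when 2000 UMIs are drawn from each nucleus. Free RNA was not removed, and intervals cover counting and library error only. The fit was also run on simulated counts with known changes. These had a fixed spread and no differences between libraries other than depth, unlike the data, and no result here rests on them. Alternatives were DESeq2 1.42.0, RLE scaling, no filter on low counts, no library block, doublets kept, other filters and gates, other thinning, and each library left out. All 7 genes were named in every gate, of 31 pathway genes those called in the same direction against both neuron gates (1 of the 3 is not reported here), and for each gene the 3 most alike. The 7 genes, the gates and the lists were chosen with earlier results of these data known. Promoter windows come from RefSeq's GRCr8 table, since no genome of the files' build was used here.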

Additional observations from a re-analysis of the deposited data

Results flagged for a closer look

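In 4 groups of 4 libraries, 1 library lay far from the other 3 by Dixon's test, which marks about 1 in 20 groups by chance, and 56 groups were tested. Ddc in GABA nuclei was at 27.9 CPM in Male 1, against 13.0 to 15.0 in the others. Gch1 over all nuclei was at 10.3 CPM in Male 1, against 8.12 to 8.35. Slc6a3 in GABA nuclei was at 2.36 CPM in Female 2, against 2.89 to 3.00, from 26 UMIs in all libraries. Maob in glutamate nuclei was at 5.67 CPM in Female 2, against 7.22 to 7.30.

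All 7 genes in all 10 comparisons between gates were searched for differences of opposite direction in the sexes, whatever their size. In 3 cases both female libraries differed in one direction and both male libraries in the other. The difference between the sexes was not tested there. Maoa in dopamine-like minus oligodendrocyte nuclei was 0.43 and 0.80 in the female and -0.36 and -0.14 in the male libraries on the log2 scale, a difference of 0.87 between the means. Maoa in dopamine-like minus astrocyte nuclei was 0.49 and 0.50 in the female and -0.28 and -0.37 in the male libraries, a difference of 0.82. Th in astrocyte minus oligodendrocyte nuclei was 0.24 and 0.20 against -0.31 and -0.06, a difference of 0.40.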

How the results depend on the processing

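Of the log2 differences of the 7 genes between gates, 813 values under alternatives kept their direction and side of the threshold, 19 lost the call, 7 gained it and 9 changed sign; in each case where no construction is named, the cause was not tested. The sign changes were all in differences that had not passed the test. Maob in dopamine-like minus glutamate nuclei was -0.10 without Female 2 (-0.10 to 0.33 over libraries left out). Maoa in dopamine-like minus oligodendrocyte nuclei was 0.0427 with DESeq2, 0.0414 with RLE scaling, 0.0875 with the stricter dopamine-like gate (2 UMIs of each), 0.0313 with the gate without Ret and 0.0377 without Male 1 (-0.33 to 0.0377 over libraries left out). Maoa in dopamine-like minus astrocyte nuclei was 0.0629 with the stricter gate, 0.0058 without Ret and 0.0240 without Male 2 (-0.31 to 0.0240).

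The number of the 7 genes called stayed at 7 against GABA and 6 against glutamate nuclei when any 1 library was left out. For astrocyte minus oligodendrocyte it fell from 2 to 1 with DESeq2, doublets kept, the gate without Ret, higher glial gates and in 1 omission (1 to 2); for astrocyte minus precursor it was 1 to 2 over omissions; for astrocyte minus microglia it fell from 6 to 3 with doublets kept and with higher glial gates (4 to 6 over omissions). All genes called in GABA minus glutamate numbered 1549, 929 without the library block and 1014 without Male 2.

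Shares move with thinning depth by construction. In the order stricter gate, gate without Ret, nuclei past 2 gates left out, 1000 UMIs, 4000 UMIs and no thinning, the Th share of dopamine-like nuclei was 60.3%, 55.5%, 59.9%, 35.5%, 70.1% and 83.4% (53.0% to 54.4% over omissions), the Slc6a3 share 64.8%, 57.3%, 62.8%, 37.7%, 64.8% and 70.7% (52.1% to 53.5%), and the share with 2 or more of 5 genes 82.5%, 76.3%, 81.0%, 53.9%, 80.3% and 88.0%. The gain beside Th was, in points, 5.35, 13.8, 10.5, 13.6, 20.5 and 28.2 for Ddc. For Slc6a3 it was 20.8 (stricter gate), 21.3 (past 2 gates left out), 18.0, 47.6 and 59.1 (1000, 4000, none). For Slc18a2 it was 17.3, 20.6, 19.8, 12.8, 41.7 and 61.3, and for Gch1 5.39, 21.9 and 41.7 at 1000, 4000 and none. No microglia value at 4000 UMIs could be given in every library.

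With the replicate number as a block (replicate block) 0 of the 7 genes were called by sex in any gate, and Maoa in dopamine-like nuclei was 0.68 (adjusted p = 0.686 by edgeR). Genes called rose from 8 to 20 in dopamine-like, 11 to 38 in GABA, 7 to 22 in glutamate, 6 to 171 in oligodendrocyte, 9 to 59 in precursor and 9 to 75 in astrocyte nuclei. The labels give no shared animal or day for the numbers, and same-numbered libraries deviated together with a correlation from -0.112 in microglia to 0.315 in all nuclei. The block could not be separated from the library in the interaction and was not run there.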

Other observations

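The pathway genes given here were chosen after their values were seen. Slc3a2, the heavy chain of the large amino acid transporter, was at 459 ± 49.4 CPM in astrocyte nuclei (SD, n = 4 libraries), against 94.0 ± 18.4 in dopamine-like nuclei. Slc18a1 was at 26.8 ± 1.78 CPM in glutamate and 12.0 ± 3.35 in astrocyte nuclei, against 1.17 ± 0.723 in oligodendrocyte nuclei. Aldh1a1 in microglia nuclei was at 114 CPM in Male 1, while the other 3 libraries reached at most 9.71 CPM.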
